A study of Mus musculus with 8 samples.

Results

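The genes described here are 35 genes of the Notch pathway and of the choice between absorptive and secretory fate in the intestinal epithelium. They were chosen by name, with earlier results of these data known, as were the other gene lists below. Each of the 35 was read from the array probe whose gene name equals its symbol. Where a gene had several, the probe with the highest mean processed signal was taken. All 35 were on the array, among 36083 gene names, and together they had 45 probes. Of the 35, 34 passed the filter on dim probes, out of 23282 genes that did, and each of these 34 was well above background on all 8 arrays, so none passed through 1 group alone. Hey2, which encodes a transcriptional repressor downstream of Notch, was well above background on 0 of 8 arrays and was not tested.

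The arrays were hybridised with RNA of the small intestine of E18.5 mouse embryos, from 4 control (Rfx6+/+) and 4 Rfx6 KO (Rfx6-/-) samples. Rfx6 encodes a winged-helix transcription factor of endocrine cells in the gut and pancreas. The knockout came from a floxed allele recombined by CMV-Cre, which is active in nearly all cells, and heterozygous carriers were then intercrossed, so the loss was not limited to the gut or to 1 cell type. Whether samples numbered separately came from separate animals was not stated, so p-values measure only the spread between these samples, which may be technical.

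In Notch signalling, a ligand of the Delta or Jagged family on 1 cell binds a Notch receptor on its neighbour. The receptor is then cut, first by an ADAM protease and then by the gamma-secretase complex, and its freed intracellular part joins Rbpj and Mastermind in the nucleus to switch on repressors of the Hes and Hey families. In the intestinal epithelium, cells with active Notch express Hes1 and become absorptive or stay progenitors, while cells that escape it express Atoh1 and become goblet, Paneth, tuft or endocrine cells. The ligand-presenting cells are themselves often secretory, and Notch also acts in vessels and smooth muscle, which whole-tissue RNA contains.

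A level below is the log2 of a probe's processed signal minus the log2 of that array's 75th percentile, so 0 stands for that percentile. Levels of different genes were read by different probes and were not set against each other. A difference is always knockout minus control on this log2 scale, with its standard error (SE) from limma, and an adjusted p is Benjamini-Hochberg adjusted over all 23282 genes. A gene was called changed at an adjusted p under 0.05. Over all genes 1139 were called, or 4.89%, of which 599 (2.57%) were lower and 540 (2.32%) higher in the knockout. Centring each array on its median gave 252 lower and 544 higher in place of these counts. The median difference of all genes was -0.05, and 39.5% of genes lay above 0. Each group had 4 arrays, which limits the precision. Signals correlated between 0.986 and 0.995 within groups and between 0.971 and 0.987 across groups. The Rfx6 probe, at transcript base 3337, read from -3.74 to -2.91 in control and from -3.37 to -2.25 in knockout samples, with a difference of 0.38 (SE 0.29, adjusted p 0.504). The sources used here do not say whether that probe lies in the deleted part, so it does not check the labels.

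Most of the pathway did not differ past the test between control and knockout intestine. Of the 34 tested genes 3 were called, or 8.82%, beside 4.89% of all genes: Psen2 and Hes6 fell and Olfm4 rose. The core of the pathway (all 4 receptors, all 5 ligands, Rbpj, Maml1 and the classical target Hes1) held no called gene. The median difference of the 34 genes was 0.13, with 23 genes above 0 and 11 below. At an unadjusted p under 0.05 stood 10 of the 34 (29.4%), beside 20.5% of all genes. In 4 genes (Psen2, Aph1a, Nrarp and Hes6) every knockout sample lay below every control sample, as in 9.21% of all genes. In 5 genes (Mfng, Olfm4, Numbl, Atoh1 and Sox9) every knockout sample lay above every control sample, as in 5.36% of all genes.

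**Figure D1:**
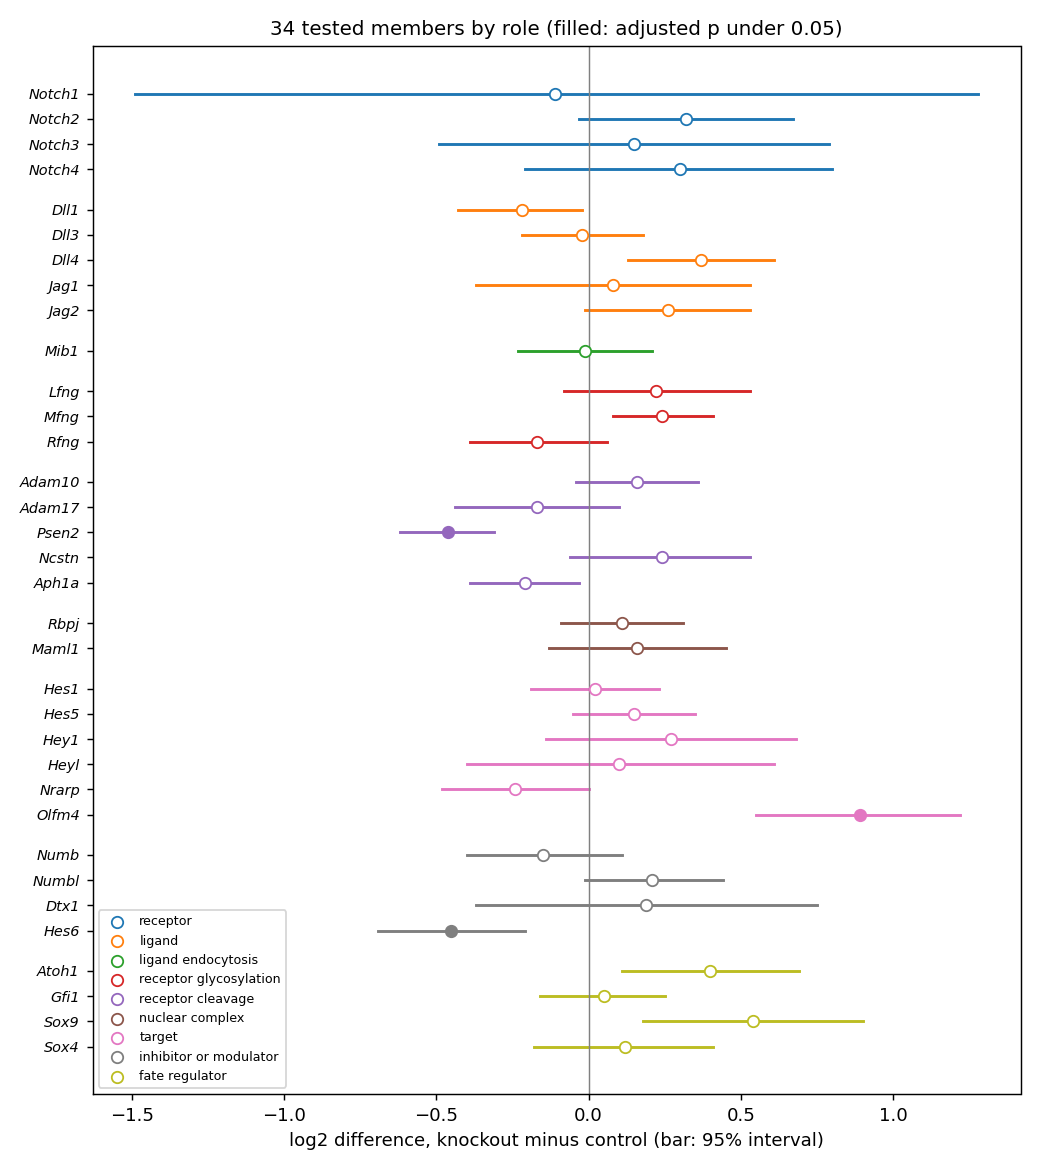
Difference of each of the 34 tested genes on the log2 scale (horizontal axis, knockout minus control), grouped by role; the point is the estimate and the bar its 95% interval over 4 samples a group, and filled points have an adjusted p under 0.05. Psen2 (-0.46) and Hes6 (-0.45) are filled to the left of 0, Olfm4 (0.89) is filled to its right, and Notch1 has the widest interval, from -1.49 to 1.28.

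The promoters of the 3 called genes are shown because the capitals mark whether the core of the Rbpj site lies in them, and Hes5 is shown beside them as a Notch target whose promoter holds it. Each sequence is the 250 bases before a RefSeq transcription start (build GRCm38.p6), 5′ to 3′ on the gene's strand, and genes with 2 such starts have 2 sequences. TGGGAA on either strand is in capitals. The windows lie at chr4:154960673-154960922 (plus strand) for Hes5 and chr14:80000052-80000301 (plus strand) for Olfm4. Those of Psen2 lie at chr1:180256301-180256550 and chr1:180245951-180246200, and those of Hes6 at chr1:91414039-91414288 and chr1:91413223-91413472, all on the minus strand.
Hes5: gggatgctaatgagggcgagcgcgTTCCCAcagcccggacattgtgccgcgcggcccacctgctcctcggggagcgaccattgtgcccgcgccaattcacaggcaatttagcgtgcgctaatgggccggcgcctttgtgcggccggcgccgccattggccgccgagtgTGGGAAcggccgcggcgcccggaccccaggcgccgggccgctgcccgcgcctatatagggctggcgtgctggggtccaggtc
Olfm4: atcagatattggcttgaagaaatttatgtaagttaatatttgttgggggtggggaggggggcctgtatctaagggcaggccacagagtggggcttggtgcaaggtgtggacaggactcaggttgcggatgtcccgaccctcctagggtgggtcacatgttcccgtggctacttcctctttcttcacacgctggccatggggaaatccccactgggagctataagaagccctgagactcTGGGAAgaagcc
Psen2 start 1: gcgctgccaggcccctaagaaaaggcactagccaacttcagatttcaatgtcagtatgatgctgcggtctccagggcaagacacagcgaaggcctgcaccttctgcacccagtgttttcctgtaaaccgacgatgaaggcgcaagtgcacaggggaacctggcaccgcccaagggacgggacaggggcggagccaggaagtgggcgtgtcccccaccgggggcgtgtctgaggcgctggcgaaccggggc
Psen2 start 2: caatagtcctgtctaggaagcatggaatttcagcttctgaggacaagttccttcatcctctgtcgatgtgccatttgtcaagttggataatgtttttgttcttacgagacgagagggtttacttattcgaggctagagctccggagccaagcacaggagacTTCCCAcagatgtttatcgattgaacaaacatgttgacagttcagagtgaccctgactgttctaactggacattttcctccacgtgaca
Hes6 start 1: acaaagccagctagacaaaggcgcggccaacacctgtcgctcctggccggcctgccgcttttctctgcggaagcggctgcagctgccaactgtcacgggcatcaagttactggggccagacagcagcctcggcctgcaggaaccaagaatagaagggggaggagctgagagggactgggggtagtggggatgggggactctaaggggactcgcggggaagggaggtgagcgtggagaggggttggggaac
Hes6 start 2: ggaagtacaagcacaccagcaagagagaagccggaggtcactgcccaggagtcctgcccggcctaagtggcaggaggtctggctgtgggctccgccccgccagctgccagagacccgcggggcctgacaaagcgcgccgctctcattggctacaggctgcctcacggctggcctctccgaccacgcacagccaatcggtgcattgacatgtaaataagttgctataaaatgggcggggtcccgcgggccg

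The Hes5 window held the motif at 2 places, beginning 226 and 82 bases before the start. Olfm4 held it once, 12 bases before its start, and the second start of Psen2 once, 89 bases before it. Neither Hes6 window and not the first Psen2 window held these letters. RefSeq gave promoters for 29 of the 35 genes, in 36 windows, and 8 of them (22.2%) held TGGGAA, in Hes5, Hey2, Lfng, Olfm4, Psen2, Rbpj and Sox4. Of all 32851 windows of that length 21.6% did, so the share among these genes was near the background. GTTGCC, a part of the X-box that RFX factors bind, was searched on both strands too and was in 0 of the 36 windows and in 10.4% of all windows. A match is a description of the letters and not of binding.

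Of the receptors, none was called, and Notch1 was the gene with the widest spread. Notch1, the main receptor of the epithelium together with Notch2, read 0.47, 1.24, -1.30 and -1.28 in control samples 1 to 4 and -1.18, -0.54, -0.12 and 0.55 in knockout samples 1 to 4. Both groups thus held high and low samples, and they overlapped over most of the range of 2.54. Its pooled within-group SD of 1.04 was larger than that of 99.4% of all genes, and the difference was -0.11 (SE 0.61, adjusted p 0.94). These values came from a probe at transcript base 5898. The other Notch1 probe, at base 8221, was well above background on 0 control arrays and 1 knockout array.

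Notch2 read -0.13, -0.43, 0.20 and 0.20 in control and 0.31, 0.49, 0.15 and 0.16 in knockout samples, with a difference of 0.32 (SE 0.15, adjusted p 0.289). All 4 knockout samples lay above the control mean of -0.04, but 2 of them lay below the 2 highest controls. The receptors of smooth muscle and endothelium, Notch3 and Notch4, differed by 0.15 (SE 0.28, adjusted p 0.795) and 0.30 (SE 0.22, adjusted p 0.494). Each had its 3 lowest values on control 1, control 2 and knockout 4: Notch3 read 0.14 and 0.72 in these controls and 0.10 in that knockout sample, against 1.00 to 1.29 on the other 5 arrays.

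None of the 5 ligands was called, and 3 lay above 0 and 2 below. Dll1, a ligand that secretory cells present to their neighbours, read 0.31, 0.21, 0.27 and 0.27 in control samples and 0.02, 0.07, 0.23 and -0.15 in knockout samples. Knockout 3 lay among the controls and the other 3 knockout samples below them all. The difference was -0.22 (SE 0.09, adjusted p 0.216). Dll4, made by intestinal secretory cells and by endothelium, read -2.62, -2.60, -2.32 and -2.56 in control and -1.99, -2.12, -2.15 and -2.35 in knockout samples. All but knockout 4 lay above the highest control. The difference was 0.37 (SE 0.11, 95% interval 0.13 to 0.61, adjusted p 0.0871). Jag2 differed by 0.26 (SE 0.12, adjusted p 0.261), Jag1 by 0.08 (SE 0.20, adjusted p 0.843) and Dll3, which acts inside cells and antagonises signalling, by -0.02 (SE 0.09, adjusted p 0.922).

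Mib1, the ubiquitin ligase that ligands need to be internalised and to signal, read between 0.10 and 0.42 in control and between 0.18 and 0.39 in knockout samples. Its difference was -0.01, with a 95% interval from -0.23 to 0.21 (adjusted p 0.974). The Fringe enzymes add sugars to Notch and change which ligands it answers. Mfng read 1.05, 1.14, 1.16 and 1.18 in control and 1.41, 1.44, 1.29 and 1.34 in knockout samples. The groups did not overlap, but its difference of 0.24 (SE 0.07, adjusted p 0.102) missed the threshold. Lfng differed by 0.22 (SE 0.13, adjusted p 0.389) and Rfng by -0.17 (SE 0.10, adjusted p 0.388).

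Among the 5 genes of receptor cleavage only Psen2 passed the test. Psen2 encodes a presenilin, the catalytic subunit of gamma-secretase. It read 2.25, 2.20, 2.18 and 2.13 in control samples 1 to 4 and 1.71, 1.72, 1.78 and 1.70 in knockout samples 1 to 4. The groups lay apart by several times their spread, with an SD of 0.05 in control and 0.04 in knockout samples. The level fell by 0.46 (SE 0.07, 95% interval -0.62 to -0.31, adjusted p 0.00657), a fold of 1.38, and it ranked 286th of all genes by p. The probe lies at chr1:182157610-182157669 (mm9) and at base 1462 of the transcript. With each array centred on its median the adjusted p was 0.0524. On the slide, control 1 shared a row with knockouts 2, 3 and 4, and knockout 1 with the other controls; with the row as a block the adjusted p was 0.0216 for Psen2, 0.0304 for Hes6 and 0.0226 for Olfm4.

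Aph1a, a scaffold subunit of gamma-secretase, read 3.08, 2.93, 3.07 and 3.14 in control and 2.85, 2.86, 2.93 and 2.74 in knockout samples. Control 2 and knockout 3 met at 2.93 to 2 decimals, with every knockout value below every control value, and the difference of -0.21 (SE 0.08, adjusted p 0.181) missed the threshold. Ncstn (nicastrin, the subunit that takes up the cut receptor) differed the other way, by 0.24 (SE 0.13, adjusted p 0.356). The proteases of the first cut differed by 0.16 for Adam10 (SE 0.09, adjusted p 0.347) and by -0.17 for Adam17 (SE 0.12, adjusted p 0.459).

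In the nucleus, Rbpj, the DNA-binding partner of cleaved Notch, read 0.34 to 0.67 in control and 0.58 to 0.68 in knockout samples. Its difference was 0.11 (SE 0.09, adjusted p 0.519). Maml1, a Mastermind co-activator, differed by 0.16 (SE 0.13, adjusted p 0.512).

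The main intestinal target, Hes1, showed no difference that this design could detect. Hes1, the repressor that holds Atoh1 down, read -0.13, -0.41, -0.19 and -0.19 in control and -0.08, -0.33, -0.19 and -0.26 in knockout samples. The groups overlapped, with 1 knockout sample above the highest control. The difference of 0.02 had an SE of 0.09 and a 95% interval from -0.19 to 0.23 (adjusted p 0.938). Hes5, a related repressor, differed by 0.15 (SE 0.09, adjusted p 0.386), Hey1 by 0.27 (SE 0.18, adjusted p 0.444) and Heyl, a target in vascular smooth muscle, by 0.10 (SE 0.22, adjusted p 0.825). Nrarp, a feedback inhibitor that Notch induces, read -1.34, -1.32, -1.35 and -1.29 in control and -1.48, -1.46, -1.44 and -1.87 in knockout samples. The groups did not overlap, knockout 4 lay far below the rest, and the difference was -0.24 (SE 0.11, adjusted p 0.242).

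Olfm4 was the only gene of the 34 that was called higher. It encodes a secreted glycoprotein of crypt-base stem cells and is a target of Notch in intestinal crypts. It read -1.61, -1.77, -1.14 and -1.31 in control samples and -0.42, -0.46, -0.76 and -0.64 in knockout samples. Every knockout sample lay above every control. The level rose by 0.89 (SE 0.15, 95% interval 0.55 to 1.22, adjusted p 0.0113), a fold of 1.85, and ranked 438th by p. The probe lies at chr14:80421398-80421457 (mm9), at base 1300 of the transcript. Leaving out any 1 array left it called, at differences from 0.79 to 1.00.

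**Figure D2:**
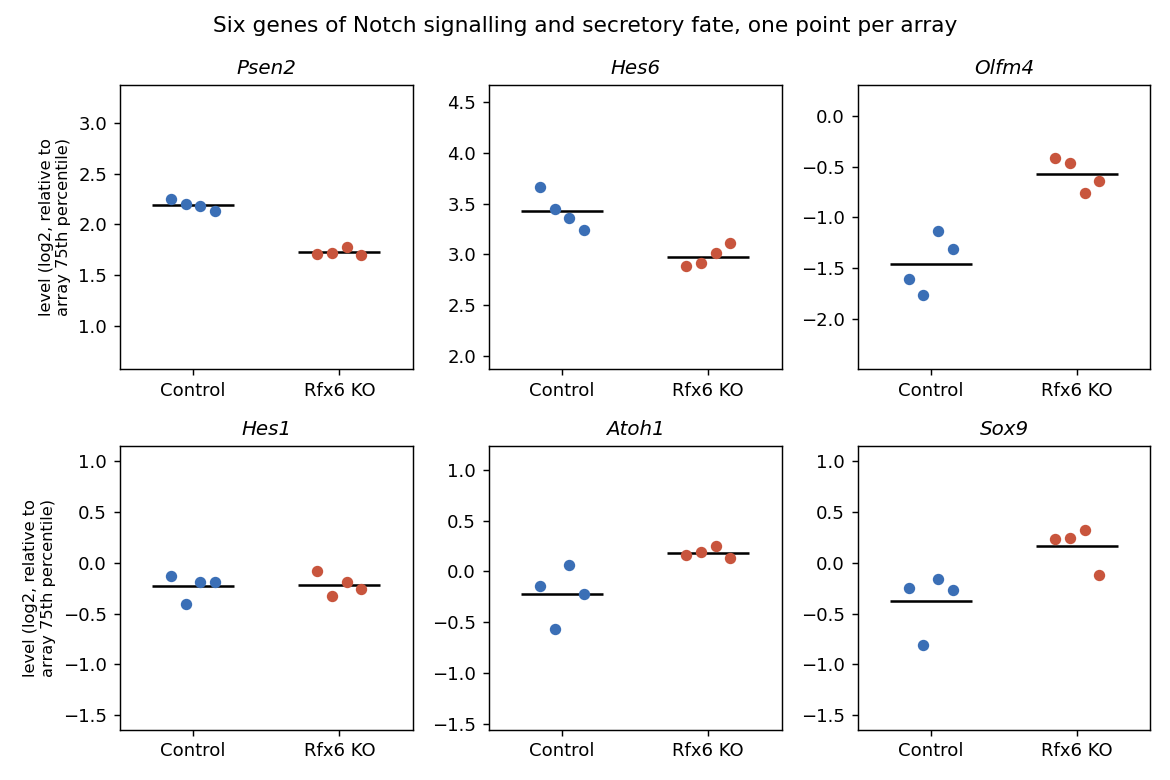
Level of 6 genes (vertical axis, log2 relative to the array's 75th percentile) in the 4 control and 4 Rfx6 KO samples, 1 point per sample with the group mean as a line; each panel spans the same number of log2 units. Psen2 and Hes6 are lower and Olfm4 higher in the knockout without overlap, Hes1 overlaps (difference 0.02), and Atoh1 and Sox9 lie higher without overlap but missed the threshold.

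Among the inhibitors and modulators Hes6 was called, on a margin that most changes of setting removed. Hes6 encodes an atypical member of the Hes family that opposes Hes1 and is expressed in neural and endocrine progenitors. It read 3.66, 3.45, 3.36 and 3.24 in control and 2.88, 2.91, 3.01 and 3.11 in knockout samples. The lowest control and the highest knockout sample were close, but the groups did not overlap. The level fell by 0.45 (SE 0.11, 95% interval -0.69 to -0.21, adjusted p 0.0469), a fold of 1.37. The probe lies at chr1:93308264-93308323 (mm9), at base 1071 of the transcript. The call was lost without any 1 of the arrays except control 4, at adjusted p from 0.0566 (without knockout 4) to 0.142 (without knockout 2). It was also lost under quantile normalization (0.0613), median centring (0.142), with no filter (0.135) and with every probe tested (0.0544).

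Endocrine hormone genes fell in the same samples as Hes6 and Psen2, and whether this had a part in those falls was not tested. Of 7 tested endocrine markers 4 fell (Cck, Gip, Sst and Ghrl), while Chga (0.26, adjusted p 0.561), Chgb (0.17, adjusted p 0.616) and Tph1 (0.39, adjusted p 0.132) did not pass the test. Gip and Sst passed the filter through the control samples alone, being well above background on 0 and 1 knockout arrays. The summed level of the 7, in units of each array's 75th percentile, was 93.1 to 114 in control and 42.4 to 51.3 in knockout samples. In whole tissue, fewer cells of a type and less RNA per cell cannot be told apart. Numbl, a cytoplasmic inhibitor of Notch, read -0.56 to -0.20 in control and -0.18 to 0.00 in knockout samples without overlap, and differed by 0.21 (SE 0.10, adjusted p 0.274). Its relative Numb differed by -0.15 (SE 0.11, adjusted p 0.507) and Dtx1, a ubiquitin ligase that modulates the receptor, by 0.19 (SE 0.25, adjusted p 0.696).

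All 4 regulators of cell fate among the 35 genes had differences above 0, from 0.05 to 0.54, and none was called. Atoh1, the factor that commits cells to the secretory lineage, read -0.14, -0.57, 0.06 and -0.22 in control and 0.16, 0.19, 0.25 and 0.13 in knockout samples. The 4 knockout samples lay close together, above the highest control. The difference was 0.40 (SE 0.13, 95% interval 0.11 to 0.69, adjusted p 0.117). Sox9, a factor of crypt progenitors that Paneth cells need, read -0.25, -0.81, -0.16 and -0.27 in control and 0.23, 0.24, 0.32 and -0.12 in knockout samples. Knockout 4 lay only just above the highest control. The difference was 0.54 (SE 0.16, 95% interval 0.18 to 0.90, adjusted p 0.0963), and with array weights the adjusted p was 0.0237. Gfi1, which acts below Atoh1 and separates goblet and Paneth cells from endocrine cells, differed by 0.05 (SE 0.09, 95% interval -0.16 to 0.25, adjusted p 0.803). Sox4, of progenitors that turn secretory, differed by 0.12 (SE 0.13, adjusted p 0.649).

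Several genes shared an order of arrays that cut across the groups. The 3 arrays on which the mean of 8 endothelial markers was lowest were control 1, control 2 and knockout 4. In 10 of the 34 genes (29.4%) the same 3 arrays were the lowest: Dtx1, Hey1, Heyl, Jag1, Lfng, Mib1, Ncstn, Notch3, Notch4 and Sox4. Of all genes 1946 (8.36%) had that order. Notch1 ran the opposite way, with these 3 arrays its highest, as in 3101 of all genes (13.3%). The order was noticed after the values were seen and is given as a description.

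The endothelial list was low on these arrays by definition, since they were picked by it. The summed level of the mesenchymal markers was low on them too. Each endothelial marker but Kdr and each mesenchymal marker but Vim had its lowest values there. Kdr was highest on knockout 4 (3.53), and Vim was lowest on control 3 (4.40). Mural and smooth muscle markers were low on all of these arrays by mean log2 level, but only on the 2 controls by summed level. The part of these markers in the spread of these genes was not tested. The summed endothelial level was 17.1, 16.3, 20.2 and 18.8 in control and 20.8, 21.7, 20.2 and 18.0 in knockout samples, and 0 of 8 endothelial markers were called. The summed level of 6 mesenchymal markers was 116, 106, 164 and 187 in control and 184, 213, 174 and 116 in knockout samples, also with 0 called. The 10 genes named above had been picked for their low values on these 2 control samples and 1 knockout sample. The 8 mural and smooth muscle markers had 0 calls too. Their summed level was 209.8, 199.8, 228 and 229.8 in control and 247, 276, 223 and 252 in knockout samples, so knockout 4 was second highest there. Their mean log2 level was 2.86, 2.77, 3.15 and 3.21 in control and 3.37, 3.49, 3.23 and 3.01 in knockout samples. By that mean, knockout 4 lay below every array but control 1 and control 2.

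**Figure D3:**
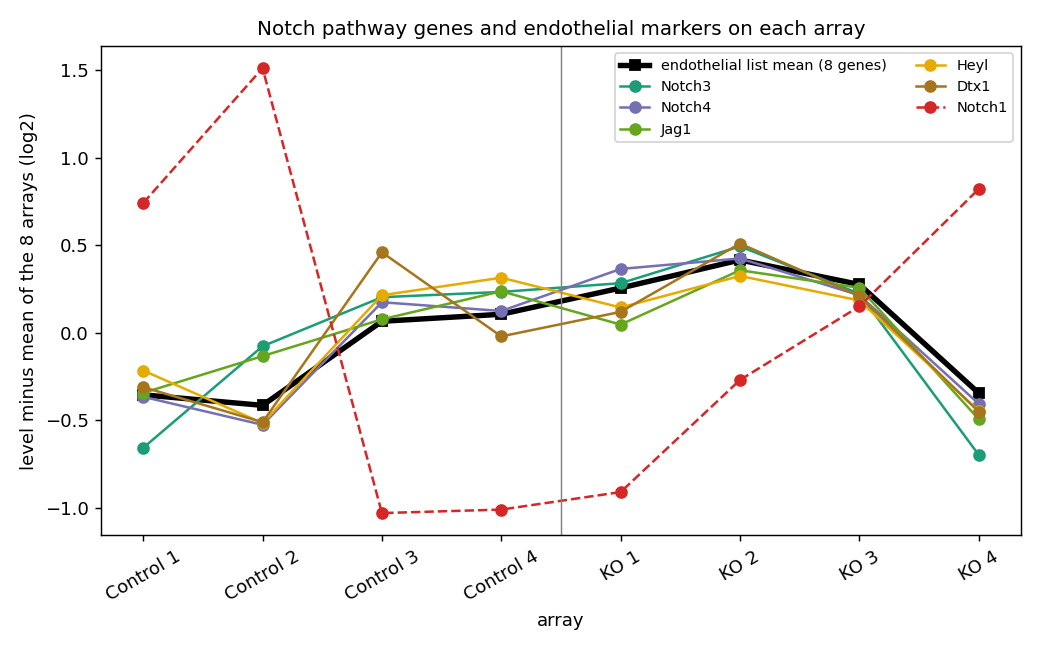
Level on each of the 8 arrays minus the gene's mean over all of them (vertical axis, log2) for 6 genes and for the mean of the 8 endothelial markers (thick black line). Notch3, Notch4, Jag1, Heyl and Dtx1 follow the black line, low on control 1, control 2 and knockout 4. They were taken from the 10 genes picked for that order, so their match was fixed by the choice. Notch1 (dashed) is highest on those arrays.

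Of 35 further genes of the Notch pathway, 33 were tested and none was called (Aph1c and Hes3 were not tested). At an unadjusted p under 0.05 stood 4 of them (12.1%), beside 20.5% of all genes, and with array weights 2 were called, Hes2 and Poglut1. The median difference was 0.08, with 23 genes above 0. The largest differences were 0.72 for Dner, a Notch-binding membrane protein of neurons (adjusted p 0.454), 0.39 and 0.33 for the co-activators Maml2 (adjusted p 0.184) and Maml3 (adjusted p 0.138), -0.32 for the repressor Hes2 (adjusted p 0.139) and 0.31 for the ubiquitin ligase Dtx4 (adjusted p 0.304).

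Of 12 other regulators of secretory lineages 10 were tested, and 4 rose and none fell, beside 2.32% and 2.57% of all genes. The list was chosen with earlier results of these data known, so the shares are given as a description. Bhlha15 (Mist1), a factor of mature secretory cells and of the chief cells of the stomach, read -2.08, -2.44, -2.15 and -2.61 in control and -0.19, -0.66, -1.12 and -0.27 in knockout samples. The groups lay far apart, and the level rose by 1.76 (SE 0.21, adjusted p 0.00252), a fold of 3.38. Foxa3, a forkhead factor of goblet cells, read -1.12, -1.37, -0.95 and -1.21 in control and -0.40, -0.51, -0.51 and -0.55 in knockout samples. It rose by 0.67 (SE 0.10, adjusted p 0.00703). Klf4, a factor of goblet cells and of differentiated epithelium, rose by 0.68 (SE 0.13, adjusted p 0.024), and Spdef, which drives goblet and Paneth maturation, by 0.50 (SE 0.12, adjusted p 0.0456).

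The last of these calls were on a narrow margin. With the slide row as a block, the adjusted p was 0.0747 for Klf4 and 0.114 for Spdef, and with no filter 0.0826 and 0.133. Spdef was also lost under median centring (0.0675), with every probe tested (0.0524) and without any 1 array except control 2, at adjusted p of 0.066 (without control 3) to 0.132 (without knockout 1). Klf4 was also lost without control 3 (0.0535), control 4 (0.0519), knockout 1 (0.0773) or knockout 4 (0.0572). Bhlha15 and Foxa3 kept their calls under all 19 alternatives.

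Neurog3, which starts the endocrine programme below Atoh1 and above Rfx6, read 0.71, 0.29, 0.67 and 0.54 in control and 1.15, 1.11, 1.09 and 0.72 in knockout samples. Every knockout sample lay above every control, and the difference of 0.46 (SE 0.13, adjusted p 0.0824) missed the threshold. Without knockout 4 it was 0.56 with an adjusted p of 0.0405, and Neurog3 was also called with the authors' values and with array weights. The other 16 of the 19 alternatives left it not called, at adjusted p up to 0.222. Creb3l1 (0.29, adjusted p 0.146), Pax4 (0.24, adjusted p 0.276), Insm1 (-0.13, adjusted p 0.45) and Xbp1 (-0.08, adjusted p 0.602) did not pass the test. Nor did Gfi1b (-0.01, adjusted p 0.973). In Pax4, Insm1, Xbp1 and Gfi1b the groups overlapped.

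**Figure D4:**
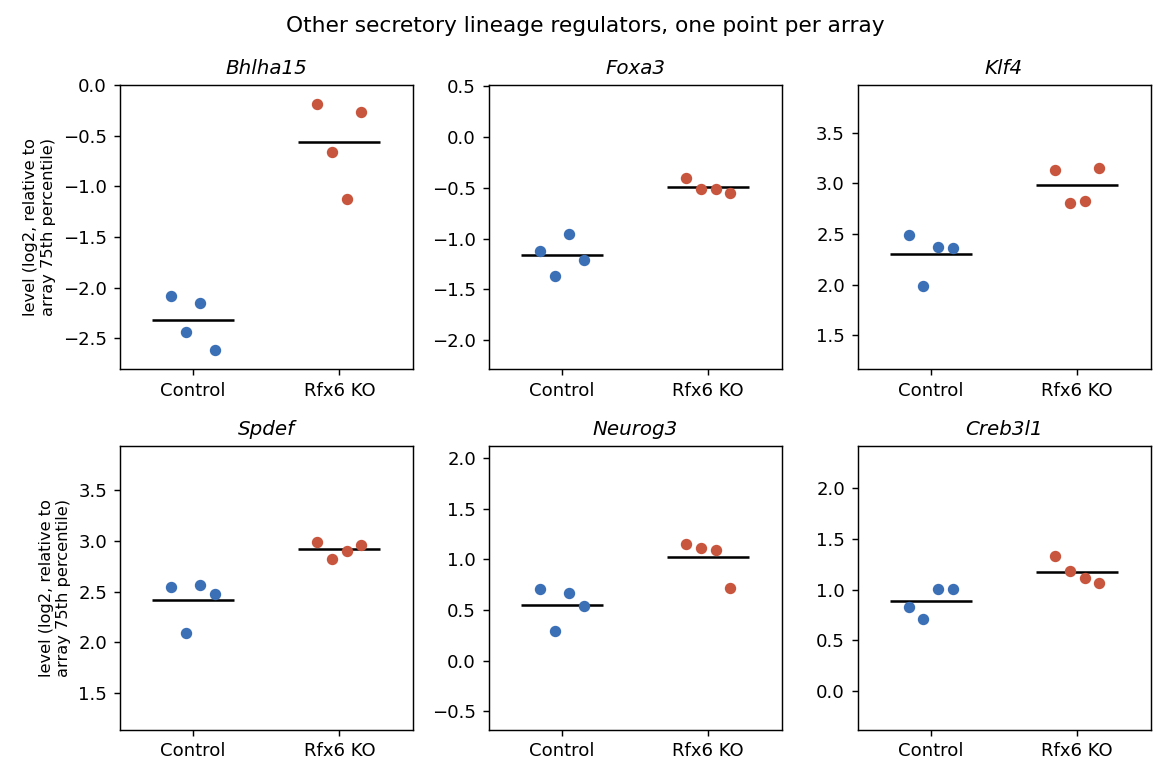
Level of 6 other secretory regulators (vertical axis, log2 relative to the array's 75th percentile) in the 4 control and 4 Rfx6 KO samples, 1 point per sample with the group mean as a line; each panel spans the same number of log2 units. The 6 shown were chosen as those of the 10 tested regulators whose groups did not overlap. Those not shown include the 3 with differences below 0. All 6 lie higher in the knockout without overlap, as do 5.36% of all genes. Bhlha15 differs the most (1.76), and Neurog3 (adjusted p 0.0824) and Creb3l1 (adjusted p 0.146) missed the threshold.

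Stomach genes moved with the same contrast and are given beside the rises of Olfm4, Bhlha15, Foxa3, Klf4 and Spdef. Of 8 markers of stomach epithelium 7 rose. Gkn2, Atp4a and Vsig1 were well above background on 0 control arrays, Atp4b on 1, and Gkn1 and Tff1 on 2. These genes thus passed the filter through the knockout samples alone. The summed level of the 8 was 5.21 in control 4, 0.482 to 0.867 in the other controls and 378 to 706 in knockout samples. The part of that signal in the rises was not tested. Of 7 enterocyte markers 3 were called lower (Lct, Apoa4 and Fabp2), with summed levels of 1351 to 1583 in control and 1041 to 1233 in knockout samples. These calls were lost under 12, 8 and 13 of the 19 alternatives, all 3 of them without control 1, control 3, knockout 1 or knockout 2. Those of Lct and Fabp2 were also lost without control 4, that of Lct without knockout 4 and that of Fabp2 without control 2 or knockout 3. Exocrine pancreas markers had 0 calls of 3 tested, leukocyte markers 0 of 6, and enteric neuron and glia markers 0 of 7.

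Calls among the markers of goblet and Paneth cells went in both directions. Of 8 goblet markers 6 had differences above 0, with a median of 0.32, and 2 were called. Zg16, a lectin of mucus, fell by 1.38 (SE 0.20, adjusted p 0.00698), and Galnt12, a mucin glycosyltransferase, rose by 0.51 (SE 0.10, adjusted p 0.027). Agr2, a disulphide isomerase that mucin folding needs, and Ang4, an antimicrobial ribonuclease, each differed by 0.32 with no overlap between groups (adjusted p 0.199 and 0.148). Muc2, the main intestinal mucin, read 1.83, 1.00, 2.70 and 2.56 in control and 3.08, 3.38, 3.11 and 2.18 in knockout samples. Control 1, control 2 and knockout 4 were again the lowest, and the difference of 0.92 (SE 0.39, adjusted p 0.231) missed the threshold. The summed goblet level of 323 to 472 in control overlapped that of 415 to 473 in knockout samples. Of 3 tested Paneth markers Mmp7, a matrix protease, rose by 1.14 (SE 0.18, adjusted p 0.00859) and Lyz1, a lysozyme, fell by 0.60 (SE 0.12, adjusted p 0.0267). Whether Paneth, tuft or crypt-base stem cells were present in these E18.5 samples was not tested. The calls of Galnt12 and Lyz1 were lost under 9 and 7 of the 19 alternatives, both of them without control 1, knockout 1, knockout 2 or knockout 3, and Galnt12 also without control 4 or knockout 4. Neither of 2 tested tuft markers was called, and Pou2f3, which defines tuft cells, was well above background on 1 of 8 arrays.

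Of 10 stem and progenitor markers 1 was called, beside 4.89% of all genes. Prom1, a membrane glycoprotein of crypt cells, rose by 0.69 (SE 0.13, adjusted p 0.0216). Without control 1 its adjusted p was 0.0663, without knockout 1 0.059, without knockout 4 0.0541 and with no filter 0.0765. Lgr5, the receptor that defines crypt-base stem cells, read -0.31, -0.62, -0.30 and -0.59 in control and -0.15, 0.17, 0.23 and -0.35 in knockout samples. The groups overlapped, and the difference of 0.43 (SE 0.15) had an adjusted p of 0.144. Msi1, an RNA-binding protein of progenitors that represses Numb, differed by -0.50 (SE 0.15, adjusted p 0.106), against the direction of Olfm4 and Lgr5.

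Where a gene had several probes, they did not all point the same way. Of the 35 genes 9 had more than 1 probe, and in 6 of these another probe differed in sign from the one used. In Notch1 and Notch2 the other probe was near background. The other probe gave a difference of 0.08 in Dll3, 0.03 in Rfng, 0.10 in Adam17 and -0.14 in Rbpj. The second probe of Aph1a gave -0.10 and that of Mfng 0.12, both in the same direction as the probe used. The other probes of Sox4 gave 0.17 and 0.35.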

How the data were processed

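Total RNA of each sample had been amplified and labelled with cyanine 3 from 100 ng, and was read on single-colour Agilent arrays with 62976 spots, all on 1 slide. The deposited files hold processed signal intensity from Agilent Feature Extraction 10.10.1.1, per the submitters' processing notes, background-corrected but not normalized between arrays. The authors' value table, also linear intensity per the values themselves, was used as an alternative; it matched quantile-normalized spot medians. The probes' coordinates are those of mm9, per the file headers.

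The members and gene lists were chosen with earlier results of these data known. In R 4.3.3, 3671 control spots and the spots marked as outliers (153 to 355 per array) were left out, spots of a probe were averaged, and log2 signals were centred on each array's 75th percentile (636 to 741 intensity units). The scanner's well-above-background mark was set for 57.4% to 67.1% of probes. A probe was kept (31668 of 55681) where 1 group or both had the mark on each of their 4 arrays, with 1 probe per gene by highest mean signal. Names were updated through RefSeq accessions (2864 probes) or synonyms (492), 26320 were current symbols and 26005 kept the file's name. Groups were compared with limma 3.58.1 (lmFit and eBayes, two-sided), with Benjamini-Hochberg adjustment over 23282 genes; the script was tested on simulated data. No label pairs the samples: deviations of same-numbered samples from their group means correlated at -0.07, -0.17, 0.07 and -0.41.

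All 35 genes are named. Of the other lists, genes past the threshold, the largest differences and well-known markers are named. Slide position was unbalanced, with 1 control and 3 knockout arrays in one row and the reverse in the other. The alternatives were normexp, quantile and median scaling, 2 filters, 2 probe rules, the authors' table, 2 blocks, array weights and leaving out each array.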

Additional observations from a re-analysis of the deposited data

Results flagged for a closer look

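In 12 of 166 groups of 4 values (7.23%; chance alone gives about 1 in 20) the sample at one end stood far from the other 3. Of these, 5 were on knockout 4 and 3 on control 2. On knockout 4, Rfng read 3.09 (others 3.26 to 3.27), Maml1 0.51 (others 0.88 to 0.95), Nrarp -1.87 (others -1.48 to -1.44) and Neurog3 0.72 (others 1.09 to 1.15), and the mean of the leukocyte markers 0.77 (others 0.97 to 0.99). On control 2, Ephb2 read -1.09 (others -0.74 to -0.72), Hes2 -0.46 (others -0.17 to -0.13) and the mean of the enterocyte markers 6.29 (others 6.63 to 6.68). On control 4, Hes5 read -2.89 (others -2.72 to -2.70) and Xbp1 5.20 (others 5.38 to 5.41). Psenen was high on control 1, at 4.81 (others 4.64 to 4.66), and the enterocyte mean was high on knockout 3, at 6.45 (others 6.18 to 6.21).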

How the results depend on the processing

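Over the 19 alternatives no called result reversed its direction, and the median difference of the 34 genes stayed between 0.05 and 0.22 without each array in turn. Genes called lower, 599, became 252 with median centring, 201 with no filter, 1410 with array weights and 232 to 590 without each array in turn. Genes called higher, 540, became 297 with no filter, 904 with array weights and 347 to 513 without each array. The 2 members called lower became 1 with quantile normalization, 0 with median centring, 1 with no filter, 1 with every probe tested and 1 to 2 without each array. The 1 member called higher stayed 1 without each array and became 2 (Sox9 added) with array weights. With array weights 2 of the other Notch pathway genes were called. The 4 other secretory regulators became 2 with no filter, 2 with the slide row as a block and 2 to 4 without each array.

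The replicate numbers of the labels do not pair the samples. With the replicate block, 148 genes were lower and 266 higher, 0 members were lower and 0 higher, and the adjusted p was 0.0777 for Psen2, 0.0864 for Olfm4 and 0.204 for Hes6. Bhlha15 (0.021) and Foxa3 (0.048) stayed called. The causes of these shifts were not tested. Probes near background, such as those of Hey2, limit what can be read.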
